A study of Mus musculus with 5 samples.

Results

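The mitochondrial carriers of the SLC25 family were examined in hearts of diabetic Akita mice and wild type mice. Members were the genes with a single annotated symbol that begins with Slc25a and a number, without Slc25a20, each read from its brightest probe set. This gave 45 of the 22180 genes with a single symbol on the array, and each of the 45 had 1 probe set. The samples were hearts of male mice at 12 weeks of age on the C57BL/6 background, numbered replicates 3, 4 and 5 in the wild type group of 3 arrays and replicates 1 and 3 in the Akita group of 2. In Akita mice the insulin gene Ins2 is mutated, given in the series' design as Ins2+/-, and the labels call them a model of type 1 diabetes. Total RNA of whole heart tissue was hybridised, so a lower signal may come from fewer cells of a type or from less RNA per cell, which cannot be told apart. The labels do not tie each array to an animal of its own, and the p-values rest on a variation among samples that is technical to an unknown degree.

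SLC25 proteins sit mostly in the inner mitochondrial membrane and exchange nucleotides, phosphate, metabolites, amino acids, cofactors and metals between the cytosol and the matrix. They share a fold built of tandem repeats, each a pair of membrane helices, and are made in the cytosol and inserted through the TIM22 complex. In heart muscle the ADP/ATP and phosphate carriers supply the ATP synthase and export its product, and the aspartate/glutamate and oxoglutarate/malate carriers bring reducing equivalents from cytosolic NADH into the matrix.

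No SLC25 gene changed past the threshold between Akita and wild type hearts. Of 37 carriers with enough signal to test, 29 lay lower (78.4%) and 8 higher in Akita. Lower values were also found in 56.4% of all genes tested and 65.5% of the genes above the 50th percentile of signal. At an adjusted p of 0.05 by limma 0 carriers passed, where 0.328% of all 15528 genes tested passed. Differences were small: the size of the fold ran from 1.00 for Slc25a5 to 1.42 for Slc25a37, and 8 of the 37 reached 1.2-fold. At an unadjusted p under 0.05 there were 5 carriers, Slc25a37, Slc25a51, Slc25a35, Slc25a28 and Slc25a39, all lower, or 13.5% of the 37. The same rule took 9.49% of all genes as lower and 4.13% as higher, and as lower 12.2% of the genes above the 50th percentile of signal, where 36 of the 37 carriers lay. Without Akita replicate 1 none of these 5 stayed at an unadjusted p under 0.05. Smallest among the carriers' adjusted p-values was 0.247.

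The median log2 difference, Akita minus wild type, was -0.13 over the 37 carriers, -0.032 over all genes tested and -0.072 over the brighter genes. In the values as deposited, groups did not overlap in 14 carriers, all lower in Akita (37.8%). Among all genes tested, 29.7% had non-overlapping groups, 19.9% with Akita lower and 9.89% with Akita higher, and among the brighter genes 25.4% and 7.29%. These counts depended on the scaling of the arrays. With the arrays centred on their median over the genes tested, 8 carriers were lower without overlap (21.6%) and 3 higher. Of all genes 12.4% and 18.2% then were. After quantile normalization again 14 were lower and 2 higher, against 20.4% and 11.5% of all genes. With the arrays centred over all probe sets 15 were lower and 0 higher, against 25.8% and 5.03%. How many carriers lay lower, with or without overlap, also depended on the scaling. Centring the arrays on their median over the genes tested left 22 lower and 15 higher, with 37.7% of all genes lower. The carrier median was then -0.034 and the median over all genes 0.062. Centring on the median over all probe sets, a setting chosen after the data were seen, left 35 lower and 2 higher. Of all genes 72.6% were then lower, and the medians were -0.21 and -0.12. The carriers' median minus that of all genes was -0.097 in the values as deposited and under both centrings, since centring moves every gene by the same amount. Under the 4 scalings tried, 22 carriers were lower in each and 2, Slc25a1 and Slc25a33, were higher in each. With each array left out as well, 17 stayed lower in every setting and 1, Slc25a33, stayed higher. The 5 that were lower under each scaling and turned with an array left out were Slc25a17, Slc25a23, Slc25a24, Slc25a25 and Slc25a29.

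**Figure D1:**
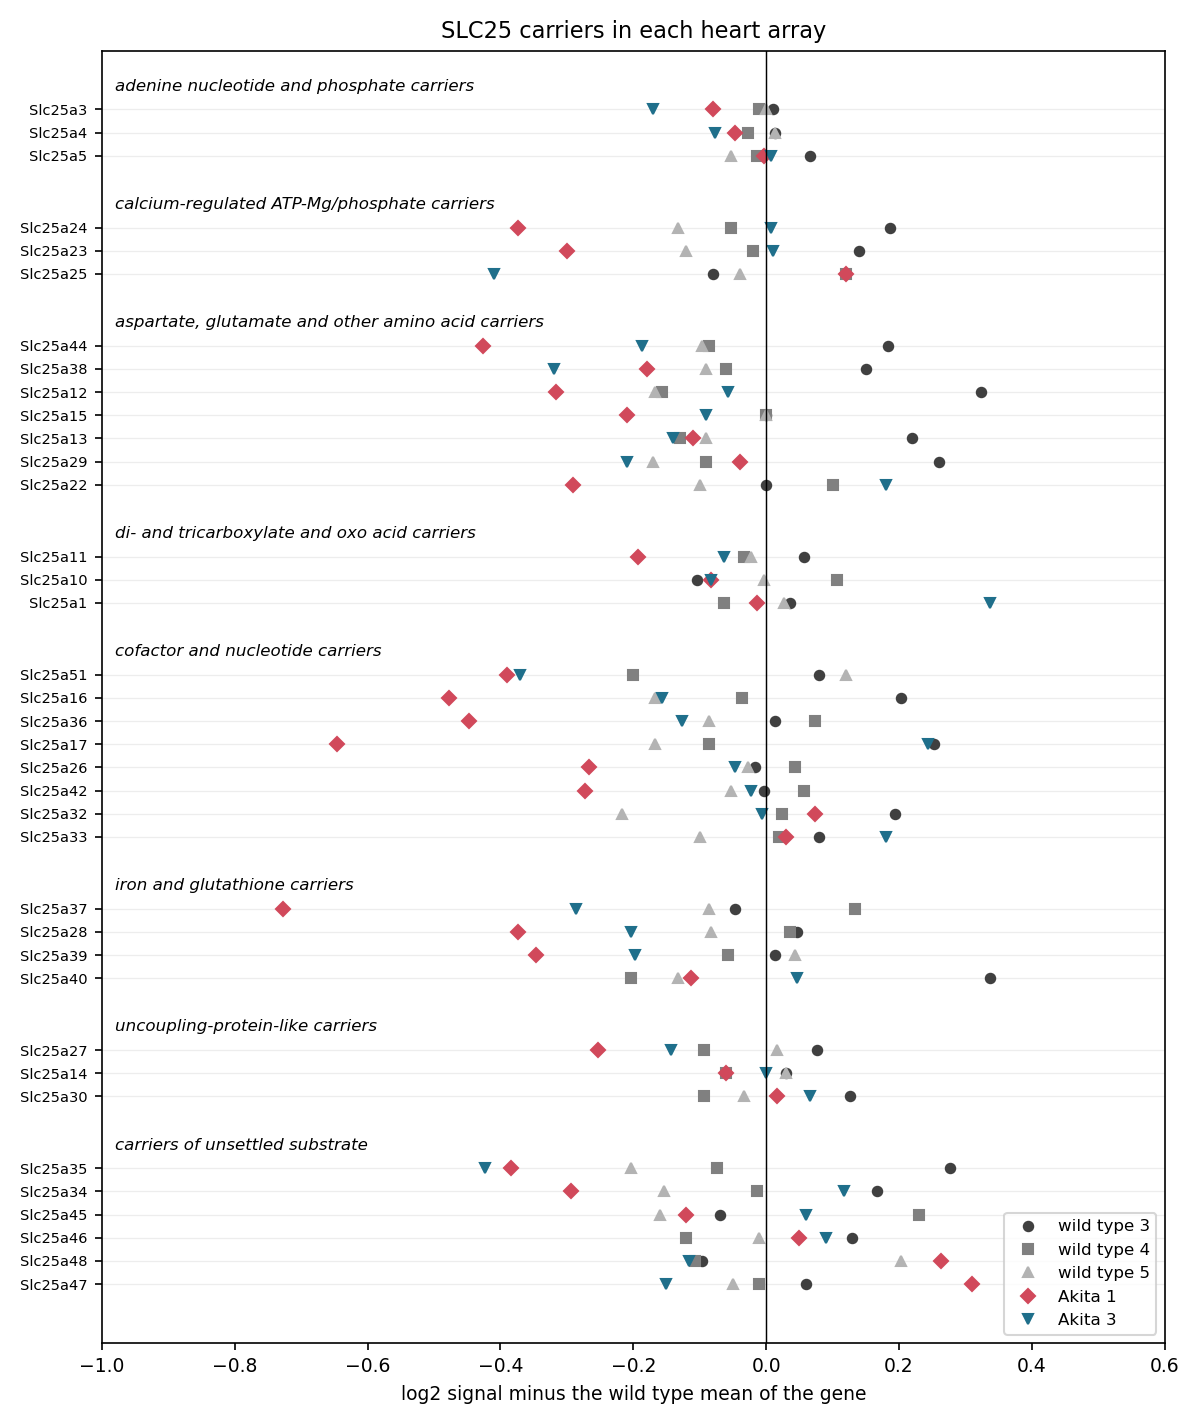
Log2 signal of the 37 tested SLC25 carriers in each of the 5 arrays, as the difference from that gene's wild type mean (x axis, log2 units), with genes grouped by transported substrate; grey symbols are wild type arrays and coloured symbols Akita arrays. Akita replicate 1 lies below the wild type mean in 30 carriers and Akita replicate 3 in 24, while wild type replicate 3 lies to the right in most rows.

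The arrays of a group were not alike in these genes. Wild type replicate 3 held the highest of the 5 values in 23 of 37 carriers (62.2%), against 27.0% of all genes tested and 33.5% of the brighter genes. Akita replicate 1 held the lowest value in 19 carriers (51.4%), against 38.7% of all genes and 49.6% of the brighter genes. Akita replicate 3 was lowest in 9 carriers (24.3%), against 16.8% and 15.3%. Ties were counted for each array that shared the value. Relative to the wild type mean of each gene, the median log2 signal over the carriers was -0.19 in Akita replicate 1 and -0.077 in replicate 3, and over all genes tested -0.07 and -0.013. Both Akita arrays lay under the wild type mean in 20 carriers and both over it in 3, Slc25a30, Slc25a33 and Slc25a46. Without wild type replicate 3 the carrier median was -0.075 against -0.025 over all genes, and the carriers at an unadjusted p under 0.05 went from 5 to 1, Slc25a37. The share of all genes lower at that p went from 9.49% to 5.99%. Without Akita replicate 1 the carrier median was -0.08 against -0.013.

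**Figure D2:**
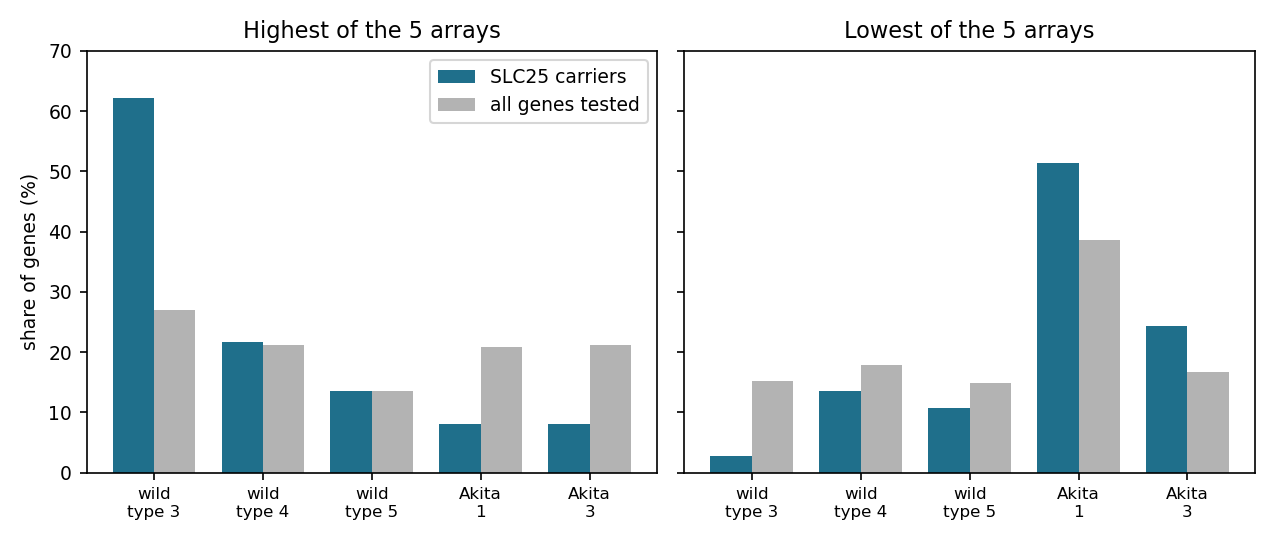
Share of genes (y axis, percent) for which each array (x axis) held the highest or the lowest of the 5 values, for the 37 SLC25 carriers and for the 15528 genes tested. Wild type replicate 3 was highest in 62.2% of carriers and 27.0% of all genes, and Akita replicate 1 was lowest in 51.4% and 38.7%.

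Carriers of ADP, ATP and phosphate showed small differences, all within intervals that span 0. Slc25a4, the ADP/ATP translocase of heart and muscle, gave log2 signals of 12.35, 12.31 and 12.35 in wild type hearts and 12.29 and 12.26 in Akita hearts. Both Akita values lay just under the wild type range, and the group means differed by -0.06 on the log2 scale (95% interval -0.30 to 0.18, adjusted p = 0.843), which turned to 0.032 with the arrays centred over the genes tested. Slc25a5, the more widely expressed translocase, read 11.11, 11.03 and 10.99 against 11.04 and 11.05, so the groups overlapped, with a difference of 0.0017 and an interval from -0.25 to 0.25, turning to -0.010 after quantile normalization again. The phosphate carrier Slc25a3 gave 10.84, 10.82 and 10.83 in wild type and 10.75 and 10.66 in Akita, the lower values being outside a narrow wild type range (log2 difference -0.125, adjusted p = 0.648). Slc25a31, a translocase known from testis, was too dim to test. For Slc25a4, Slc25a5 and Slc25a3 the intervals leave out log2 differences of 0.5 in either direction, as they do for 24 of the 37 carriers.

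Calcium-regulated carriers, which exchange ATP-Mg for phosphate and so set the adenine nucleotide content of the matrix, lay lower in 3 of 3 tested genes under each scaling, with 0 past either threshold and a median of -0.145. Slc25a25, one of them, read 5.38, 5.58 and 5.42 in wild type and 5.58 and 5.05 in Akita. Akita replicate 1 matched the top of the wild type range and replicate 3 lay under all of it, and without replicate 3 the difference of -0.145 turned to 0.12. Slc25a23 differed by -0.145 and Slc25a24 by -0.18, and in both it was Akita replicate 1 that lay under the wild type range, with replicate 3 inside it. Without Akita replicate 1 these turned to 0.010 and 0.0067, so each of the 3 tested genes changed direction when 1 Akita array was left out. The other 2 genes listed with these ATP-Mg/phosphate carriers, Slc25a41 and Slc25a54, were too dim to test.

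For the malate-aspartate shuttle, which moves reducing equivalents into the matrix, the 3 carriers (Slc25a11, Slc25a12 and Slc25a13) lay lower in Akita under each of the 4 scalings, none past either threshold. Slc25a12, the calcium-stimulated aspartate/glutamate carrier of muscle and brain, stood at 11.40, 10.92 and 10.91 in wild type and 10.76 and 11.02 in Akita. Wild type replicate 3 was far above the other 4 arrays, and without it the log2 difference went from -0.19 to -0.025. Slc25a13, its relative of liver and other tissues, showed the same layout with 10.29, 9.94 and 9.98 against 9.96 and 9.93, and its difference went from -0.125 to -0.015 without that array. Slc25a11, the oxoglutarate/malate carrier, did not overlap between groups, at 11.46, 11.37 and 11.38 in wild type and 11.21 and 11.34 in Akita (log2 difference -0.13, interval -0.38 to 0.13, adjusted p = 0.656), and its difference went to -0.063 without Akita replicate 1.

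The 4 shuttle enzymes, the aspartate aminotransferases Got1 and Got2 and the malate dehydrogenases Mdh1 and Mdh2, were all lower without overlap in the values as deposited, with Mdh1 turning to 0.0075 when the arrays were centred over the genes tested. Got1, the cytosolic aminotransferase, stood at 12.29, 12.07 and 12.08 in wild type and 11.79 and 11.76 in Akita (log2 difference -0.37, unadjusted p = 0.0154, adjusted p = 0.264 by limma). Got2 differed by -0.23, Mdh2 by -0.18 and Mdh1 by -0.087. Of all genes tested, 19.9% were lower without overlap, and 25.4% of the brighter genes. The median over the 4 was -0.20, beside -0.032 over all genes tested, and wild type replicate 3 was the highest array in 3 of them.

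Amino acid carriers lay lower in 7 of 7 tested genes, or 6 of 7 after quantile normalization again or with the arrays centred over the genes tested, with 0 at an unadjusted p under 0.05 and a median of -0.15. Slc25a44, a carrier of branched-chain amino acids, read 7.08, 6.81 and 6.80 in wild type and 6.47 and 6.71 in Akita, without overlap (log2 difference -0.31, interval -0.63 to 0.020). Slc25a38, which carries glycine for heme synthesis, read 7.05, 6.84 and 6.81 against 6.72 and 6.58, again without overlap (-0.25). For Slc25a15, the ornithine carrier, all 3 wild type arrays read 6.88, and the Akita arrays read 6.67 and 6.79 (-0.15). Slc25a29, a carrier of basic amino acids, differed by -0.125 and the glutamate carrier Slc25a22 by -0.055, the latter turning to 0.017 after quantile normalization again and to 0.039 with the arrays centred over the genes tested. Slc25a29 turned to 0.005 without wild type replicate 3 and Slc25a22 to 0.18 without Akita replicate 1. Slc25a2 and Slc25a18 were too dim to test. Of all genes tested, 56.4% lay lower in Akita in the values as deposited.

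Carriers of citrate and dicarboxylates had little difference. Slc25a1, the citrate carrier that feeds cytosolic fatty acid synthesis, read 6.81, 6.71 and 6.80 in wild type and 6.76 and 7.11 in Akita. Only Akita replicate 3 stood above the wild type arrays, and without it the difference of 0.16 (interval -0.15 to 0.48, adjusted p = 0.647) turned to -0.013. The mean over 7 white adipocyte markers was also highest in that array, at 5.76 against 5.18 in Akita replicate 1 and 4.78 to 4.93 in wild type. Among these markers Adipoq and Lep lay under the filter in signal. Lep was not highest in that array, at 3.99 against 4.12 in Akita replicate 1 and 4.21 in wild type replicate 5. The part of the white adipocyte markers in the value of Slc25a1 was not tested. Slc25a10, the dicarboxylate carrier, read 6.12, 6.33 and 6.22 in wild type and 6.14 in both Akita arrays, inside the wild type range (-0.083, and 0.011 with the arrays centred over the genes tested).

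Iron and glutathione carriers lay lower in 4 of 4 genes, or 3 of 4 where Slc25a40 turned under 2 of the scalings, with a median of -0.28, and 3 of the 5 carriers at an unadjusted p under 0.05 were in this group, where the same rule took as lower 9.49% of all genes tested and 12.2% of the brighter genes. Slc25a37 (mitoferrin 1), which brings iron into mitochondria and is best known from red cell precursors, read 7.22, 7.40 and 7.18 in wild type and 6.54 and 6.98 in Akita. Both Akita arrays lay under the wild type range, replicate 1 by more. The means were 7.27 ± 0.12 (SD, n = 3) and 6.76 ± 0.31 (SD, n = 2), with a log2 difference of -0.51 (SE 0.16, 95% interval -0.87 to -0.14, unadjusted p = 0.0134, adjusted p = 0.247 by limma). Without Akita replicate 1 the difference was -0.29 and without Akita replicate 3 it was -0.73. Slc25a28 (mitoferrin 2), the iron carrier of other tissues, read 8.45, 8.44 and 8.32 against 8.03 and 8.20 (log2 difference -0.29, SE 0.12, adjusted p = 0.341). Groups did not overlap there, and the gap between the lowest wild type array and the higher Akita array was small.

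Slc25a39, the carrier that imports glutathione, read 9.20, 9.13 and 9.23 in wild type and 8.84 and 8.99 in Akita, without overlap (log2 difference -0.27, SE 0.11, adjusted p = 0.350). Its close relative Slc25a40 did not share the pattern of non-overlapping groups. Slc25a40 read 6.97, 6.43 and 6.50 against 6.52 and 6.68, with wild type replicate 3 highest and a difference of -0.033, which turned to 0.026 after quantile normalization again and to 0.061 with the arrays centred over the genes tested. Slc25a37, Slc25a28 and Slc25a39 were lower in all 9 settings of scaling and arrays left out. Slc25a28 and Slc25a39 were not under an unadjusted p of 0.05 with the arrays centred over the genes tested, with array weights, or without any 1 array other than Akita replicate 3, and Slc25a37 was not without Akita replicate 1. In the fit with no filter Slc25a39 also was not, at an unadjusted p of 0.0526 by limma. Of 13 erythroid markers looked up beside Slc25a37, 4 had a probe set with a single symbol, of which Epb42 lay under the filter in signal. The globin genes and Alas2 were not analysed here. The mean of the 4 erythroid markers was 6.47, 6.08 and 6.34 in wild type and 6.31 and 6.33 in Akita, so the groups overlapped. Slc4a1, the anion exchanger of the red cell membrane, differed by 0.23 and Bpgm, an enzyme of red cell glycolysis, by -0.23.

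**Figure D3:**
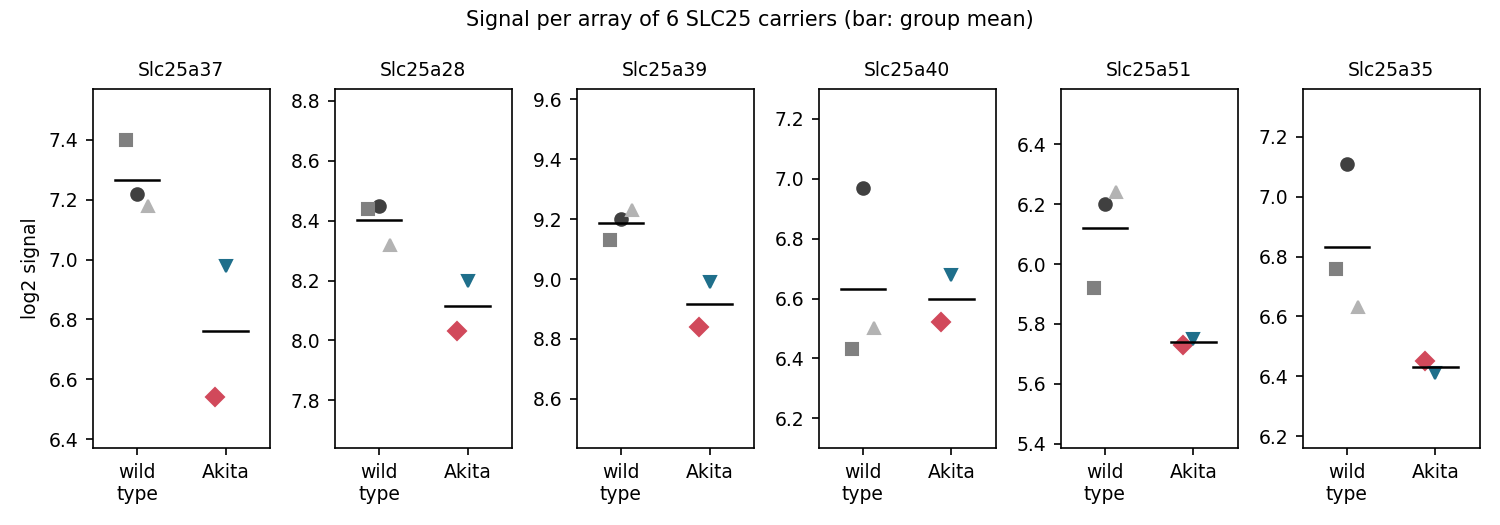
Log2 signal (y axis) per array of the 4 iron and glutathione carriers and of Slc25a51 and Slc25a35, in wild type (circle replicate 3, square replicate 4, upward triangle replicate 5) and Akita hearts (diamond replicate 1, downward triangle replicate 3), with bars at group means and each y axis spanning the same log2 range. Both Akita arrays lie under all wild type arrays in each panel except that of Slc25a40, where the groups overlap.

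The start regions of 2 genes of the iron and glutathione group are shown because both had non-overlapping groups and an entry among the RefSeq promoter windows (GRCm38.p6), which run from 250 bases before to 50 bases after the annotated start. Capitals mark every match, on either strand, to the GC box GGGCGG or the CCAAT box CCAAT. Slc25a28 lies at chr19:43674832-43675131 and Slc25a39 at chr11:102407468-102407767, both on the minus strand and printed 5′ to 3′ along the gene.
Slc25a28: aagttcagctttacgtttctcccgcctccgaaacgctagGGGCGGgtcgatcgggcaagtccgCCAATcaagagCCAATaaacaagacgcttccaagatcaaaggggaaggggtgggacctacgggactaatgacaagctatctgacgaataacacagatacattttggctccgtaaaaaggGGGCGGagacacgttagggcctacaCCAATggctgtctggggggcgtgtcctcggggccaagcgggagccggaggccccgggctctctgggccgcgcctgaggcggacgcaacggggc
Slc25a39: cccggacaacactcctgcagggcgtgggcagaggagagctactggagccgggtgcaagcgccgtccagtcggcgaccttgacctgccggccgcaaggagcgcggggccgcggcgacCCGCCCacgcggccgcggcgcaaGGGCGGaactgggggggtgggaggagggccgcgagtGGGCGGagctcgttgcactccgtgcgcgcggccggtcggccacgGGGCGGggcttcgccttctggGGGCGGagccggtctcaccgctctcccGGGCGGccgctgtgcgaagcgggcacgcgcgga
The Slc25a28 window holds both motifs and is 60% G and C, while that of Slc25a39 is 77.3% G and C and holds GC boxes without a CCAAT box. Of the 37 tested carriers, 29 had a window, and 26 of those (89.7%) held a GC box, against 62.1% of the 12072 tested genes with a window. A CCAAT box was in 17 carriers (58.6%), against 41.5%. The NRF1 motif was in 1 (3.45%), against 5.78%, the CRE TGACGTCA in 2 (6.90%), against 3.19%, and the GATA element AGATAA in 2 (6.90%), against 8.72%. Neither the ERR element TCAAGGTCA (0.331% of tested genes) nor the FoxO element TGTTTAC (3.16%) was found in these 29. Motif shares were not counted for the brighter genes alone, where 36 of the 37 carriers lay. The GC box share was 38.2% over all 27025 genes with a window, below that of the tested genes. Both strands were read for every motif, a gene with several windows counted when any of them matched, and a match or its absence is a property of these letters and not evidence of binding.

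Cofactor and nucleotide carriers lay lower in 6 of 8 genes, or 7 of 8 with the arrays centred over all probe sets, 1 of them at an unadjusted p under 0.05, with a median of -0.18. Slc25a51, which brings NAD+ into the matrix, read 6.20, 5.92 and 6.24 in wild type and 5.73 and 5.75 in Akita. The Akita arrays were nearly equal and both under the wild type range (log2 difference -0.38, SE 0.13, adjusted p = 0.295). Over the alternatives its difference ran from -0.48 to -0.29. Its unadjusted p by limma was 0.0873 with the arrays centred over the genes tested and 0.0545 with array weights. It was 0.0683 without wild type replicate 3, 0.0093 without replicate 4 and 0.0736 without replicate 5. An unadjusted p under 0.05 took as lower 9.49% of all genes tested and 12.2% of the brighter genes. Slc25a36, a pyrimidine nucleotide carrier, read 7.68, 7.74 and 7.58 against 7.22 and 7.54 (-0.29), and the related Slc25a33 read 7.59, 7.53 and 7.41 against 7.54 and 7.69 (0.105). Akita replicate 1 lay inside the wild type range of Slc25a33 and under that of Slc25a36.

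Slc25a16, related to coenzyme A carriers, read 8.85, 8.61 and 8.48 in wild type and 8.17 and 8.49 in Akita, overlapping through wild type replicate 5 (-0.32, adjusted p = 0.431). Slc25a42, which carries coenzyme A, read 8.54, 8.60 and 8.49 against 8.27 and 8.52, with Akita replicate 3 inside the wild type range (-0.15). For Slc25a26, the carrier of the methyl donor S-adenosylmethionine, values were 6.82, 6.88 and 6.81 against 6.57 and 6.79, without overlap by a narrow gap (-0.16). Without Akita replicate 1 the difference of Slc25a36 went to -0.13, that of Slc25a42 to -0.023 and that of Slc25a26 to -0.047. Slc25a17, the peroxisomal cofactor carrier, had the widest spread in Akita, at 6.29 in replicate 1 and 7.18 in replicate 3, against 7.19, 6.85 and 6.77 in wild type. Its difference of -0.20 was -0.65 in the fit without Akita replicate 3 and 0.24 in the fit without Akita replicate 1. Slc25a32, a folate and flavin carrier, differed by 0.033 and turned to -0.052 with the arrays centred over all probe sets.

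Among the 3 carriers resembling uncoupling proteins, Slc25a27 did not overlap, at 5.89, 5.72 and 5.83 in wild type and 5.56 and 5.67 in Akita (-0.20, adjusted p = 0.491), while Slc25a14 differed by -0.03 and Slc25a30 by 0.042 with overlapping groups. The direction of Slc25a14 turned with the arrays centred over the genes tested (0.064) and that of Slc25a30 with the arrays centred over all probe sets (-0.043). Carriers whose substrate is less settled were split, 3 lower and 3 higher of 6 tested, with 1 lower and 5 higher when the arrays were centred over the genes tested and 6 lower over all probe sets. Slc25a35 read 7.11, 6.76 and 6.63 in wild type and 6.45 and 6.41 in Akita, both under the wild type range (log2 difference -0.40, SE 0.16, adjusted p = 0.329), and without wild type replicate 3 the difference was -0.265. The unadjusted p of Slc25a35 by limma was 0.0862 with the arrays centred over the genes tested and 0.0646 with array weights. It was 0.0825 without wild type replicate 3, 0.0530 without replicate 4 and 0.0171 without replicate 5. A further probe set assigned to both Slc25a35 and Rangrf was not used. Slc25a46, an outer membrane protein of mitochondrial shape, differed by 0.07, Slc25a47 by 0.08, Slc25a48 by 0.073, Slc25a34 by -0.088 and Slc25a45 by -0.03, all with overlapping groups and each turning direction under at least 1 of the 2 centrings.

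Of the 8 SLC25 genes under the filter on dim signal, 3 had both Akita arrays above all wild type arrays and 1 had both below. Slc25a21, an oxodicarboxylate carrier, read 3.47, 3.27 and 3.45 in wild type and 4.02 and 3.64 in Akita. Slc25a31 read 3.93, 3.62 and 3.93 against 4.32 and 4.08, and Slc25a54 read 3.40, 3.39 and 3.11 against 3.74 and 3.52. In the other direction, Slc25a2 read 3.48, 3.35 and 3.53 against 3.32 and 3.10. Among all 6652 genes under the filter, 16.6% had Akita higher and 6.10% Akita lower without overlap, and the median difference was 0.06. Slc25a18, Slc25a41, Slc25a43 and Slc25a53 overlapped between groups. Signals this low were left out of the tests above. In the fit with no filter, Slc25a21 and Slc25a31 were at an unadjusted p under 0.05, higher in Akita, and 0 of the 45 passed the adjusted threshold. Of all genes in that fit, 5.32% were higher at that unadjusted p.

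**Figure D4:**
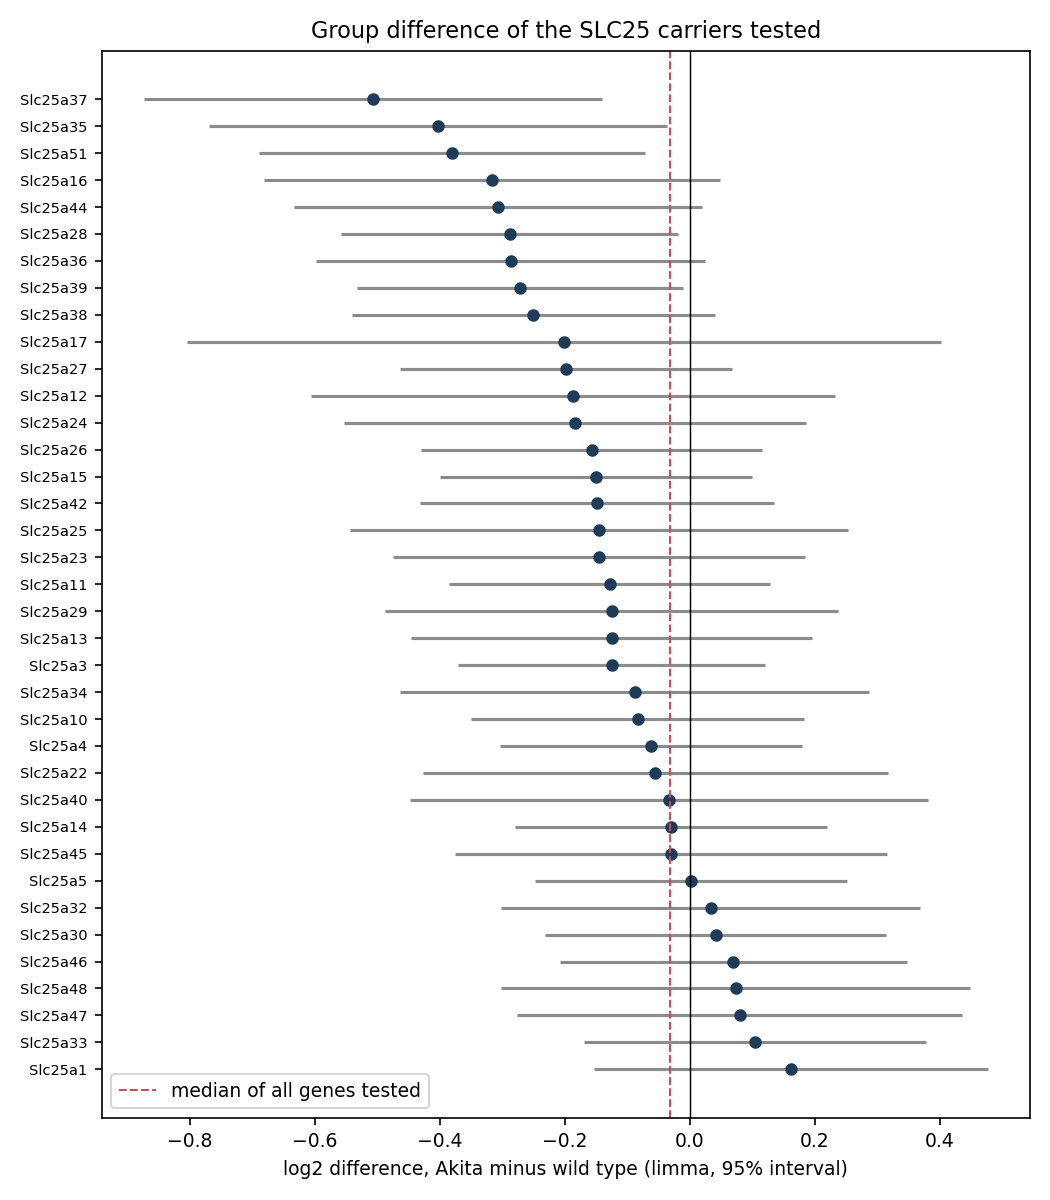
Log2 difference, Akita minus wild type (x axis), of the 37 tested SLC25 carriers in order of size, with 95% intervals from limma over 3 wild type and 2 Akita arrays; the dashed line is the median of all 15528 genes tested. The interval leaves out 0 in 5 carriers, all lower in Akita, and no upper bound reaches a log2 difference of 0.5.

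Homologs left out of the member rule, or named under other symbols, lay higher in 5 of 5 tested genes, with Mtch2 turning to -0.042 when the arrays were centred over all probe sets. Slc25a20, the carnitine/acylcarnitine carrier, read 10.39, 10.12 and 10.07 in wild type and 10.35 and 10.51 in Akita (log2 difference 0.24, adjusted p = 0.495), so wild type replicate 3 was inside the Akita range. Ucp3, the uncoupling protein of muscle, read 9.04 and 9.35 in Akita against 7.58, 8.27 and 7.94 in wild type (log2 difference 1.26, adjusted p = 0.0785). Ucp1, that of brown fat, read 5.35 and 6.82 against 4.36, 4.21 and 4.17 (1.84, adjusted p = 0.131), and in both genes the groups did not overlap. The outer membrane homologs Mtch1 and Mtch2 differed by 0.17 and 0.043 with overlapping groups, and 0 of these 5 passed the adjusted threshold. Of all genes tested, 56.4% lay lower in Akita, and 9.89% were higher without overlap. The other brown adipocyte markers did not share the layout of Ucp1. Cidea read 8.33, 8.37 and 8.26 in wild type and 8.37 and 8.82 in Akita, Cox8b overlapped between groups, Cox7a1 was lower in both Akita arrays (12.30 and 12.27 against 12.34 to 12.43), and Elovl3 lay under the filter in signal.

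Other transporters of the mitochondrial membranes lay lower in 13 of 17 genes with a median of -0.08, or in 8 of 17 with a median of 0.014 when the arrays were centred over the genes tested, with 1 at an unadjusted p under 0.05 and 0 past the adjusted threshold. That gene was Sfxn4, a sideroflexin tied to iron-sulfur metabolism, at 6.55, 6.53 and 6.43 in wild type and 6.06 and 6.27 in Akita (log2 difference -0.34, adjusted p = 0.297). Slc8b1, the mitochondrial sodium/calcium exchanger, differed by -0.27 and Smdt1, a subunit of the calcium uniporter, by -0.22, while the uniporter pore gene Mcu differed by -0.027, turning to 0.031 after quantile normalization again. Wild type replicate 3 was the highest array in 8 of the 17. Of all genes tested, 56.4% lay lower, or 37.7% with the arrays centred over the genes tested. At an unadjusted p under 0.05, 9.49% of all genes tested were lower, and 12.2% of the brighter genes.

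Genes listed for the import of carriers, from the outer membrane translocase to the TIM22 complex, were divided. Of 13, 7 were lower and 6 higher (5 and 8 with the arrays centred over the genes tested, 11 and 2 over all probe sets). The median was -0.005, with 2 lower at an unadjusted p under 0.05 and 0 past the adjusted threshold. Tomm40, the channel of the outer membrane translocase, read 9.28, 9.20 and 9.11 in wild type and 8.86 and 8.62 in Akita (log2 difference -0.46, adjusted p = 0.210). Timm22, the insertase through which carriers enter the inner membrane, read 6.12, 6.11 and 5.93 against 5.83 and 5.53 (-0.37, adjusted p = 0.307). In both genes every Akita array lay under every wild type array, with replicate 3 the lower. Of all genes tested, 19.9% were lower without overlap and 9.49% were lower at an unadjusted p under 0.05. Among the brighter genes these shares were 25.4% and 12.2%. Timm10b, a small chaperone bound to that insertase, differed in the other direction (0.27), and the carrier receptor Tomm70a by -0.0083, turning to 0.031 after quantile normalization again.

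Heart muscle markers were present in all arrays. Their mean over 8 genes was 12.14, 12.185 and 12.215 in wild type and 12.09 and 12.03 in Akita, so both Akita arrays lay lower. Of the 8 markers 7 were lower, 6 of them without overlap, with a median of -0.086. Of all genes tested 19.9% were lower without overlap, and of the brighter genes 25.4%. With the arrays centred over the genes tested, 4 of 8 were lower with a median of 0.0083. Cardiac fibroblast markers had a mean of 8.37 to 8.53 in wild type, 8.44 in Akita replicate 1 and 9.07 in replicate 3. Atrial myocyte markers stood at 8.76 to 8.97, 8.26 and 10.74. They were not uniform in Akita replicate 1. Relative to the wild type mean, Nppa there was at 0.33, Sln at -1.23, Myl4 at -0.18 and Myl7 at -1.45. The carriers were lower in Akita replicate 1 than in replicate 3 in 26 of 37 genes and higher in 10. Hepatocyte markers had a mean of 3.84 to 3.96 in wild type, 4.31 in Akita replicate 1 and 3.96 in replicate 3, with Alb, Serpina1a and Fgb, 3 of the 5, under the filter in signal. Macrophage markers had a mean of 7.74 to 7.87 in wild type, 7.44 in Akita replicate 1 and 7.73 in replicate 3, and endothelial markers 9.18 to 9.33, 9.28 and 9.40. The macrophage markers were not uniform. Relative to the wild type mean, Cd68 was at -1.02 in Akita replicate 1 and -0.67 in replicate 3, and Adgre1 at -0.34 and -0.14. Csf1r was at -0.41 and 0.073, Mrc1 at -0.25 and 0.25, and Lyz2 at 0.16 and 0.07. The part of any of these cell types in the carriers' values was not tested.

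**Figure D5:**
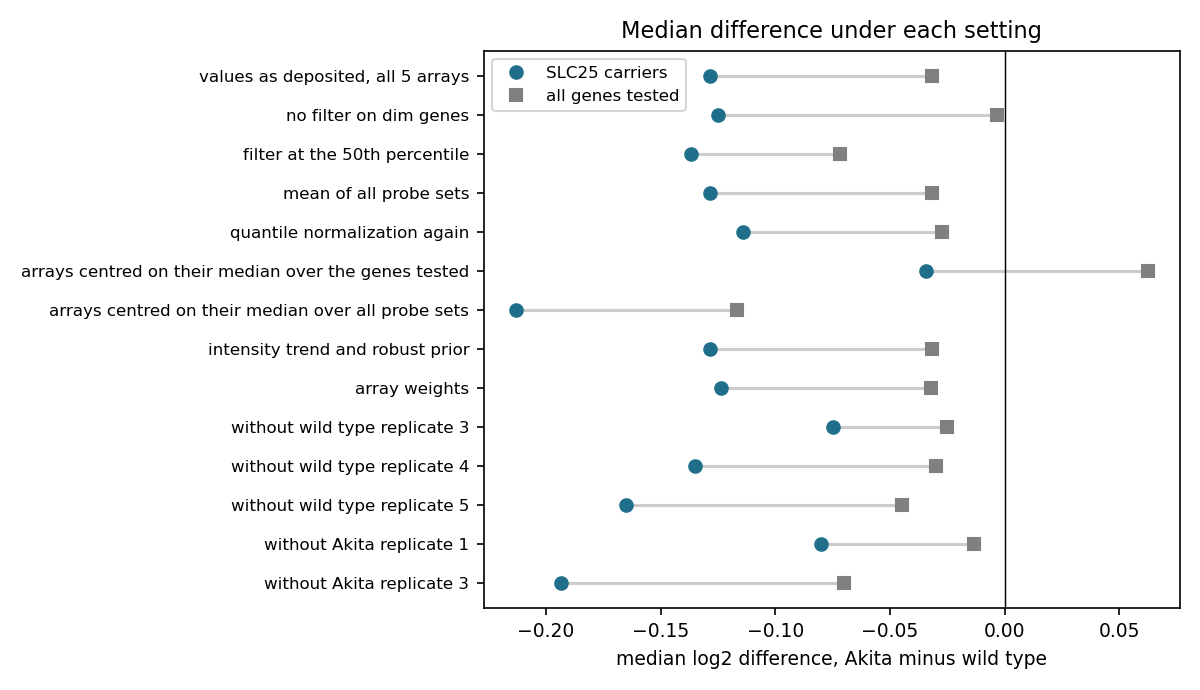
Median log2 difference, Akita minus wild type (x axis), of the tested SLC25 carriers (circles) and of all genes tested (squares) under each setting (y axis). The carrier median runs from -0.21 to -0.034 and lies below that of all genes in every setting drawn, with the smallest difference between the medians, -0.05, without wild type replicate 3.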

How the data were processed

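Per the submitters' processing notes the authors made the values with Affymetrix Expression Console; its version, its summary method and any scaling between arrays are not stated in the sources used here. The deposited table holds a log2 value for each of 41345 probe sets in 5 arrays, the base being read from the range of the values. A shift common to most genes could be lost if arrays were scaled to each other. Probe sets with exactly 1 symbol in the platform annotation numbered 23521; 1814 had several and 16010 were unlisted. Each gene was read from its probe set of highest mean, and genes whose mean lay below the 30th percentile (4.06) were dropped, leaving 15528, among them 37 of 45 SLC25 genes.

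The contrast was fitted with lmFit and eBayes (limma 3.58.1, R 4.3.3; two-sided; 3 residual and 4.38 prior degrees of freedom), adjusted by Benjamini-Hochberg over all genes tested; the script was tested on simulated data. The number of arrays limits the precision. With groups of 3 and 2 arrays the smallest exact permutation p is 0.1, so none is given. Values in every array are given for the 12 carriers of smallest p and for 14 of known cardiac or metabolic role. Slc25a17, the dim carriers, Mcu, Tomm70a, Slc4a1 and Bpgm were added after their values were seen. Slc25a40, which is in neither set of carriers, was also given in every array. The members and lists were chosen with earlier results of these data known. Alternatives were other filters, scalings, priors and weights, the mean of all probe sets, and each array left out, where an Akita group of 1 array was assumed to vary like wild type. No batch is named in the labels.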

Additional observations from a re-analysis of the deposited data

How the results depend on the processing

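Genes called over all genes tested numbered 51 and ran from 9 to 40 with an array left out (9, 17 and 26 without wild type replicate 3, 4 or 5, 11 without Akita replicate 3). They numbered 86 with no filter, 84 with the arrays centred over all probe sets, 30 with them centred over the genes tested, 197 with an intensity trend and robust prior and 28 with array weights. Carriers called were 0 in each of these fits. Carriers at an unadjusted p under 0.05 numbered 5, ran from 1 to 7 with an array left out (1 without wild type replicate 3, 2 without wild type replicate 4 or 5), and were 1 with array weights or with the arrays centred over the genes tested. Without Akita replicate 1 they were 2 others, Slc25a1 (higher, 0.34) and Slc25a25 (lower). They were 6 with no filter, 4 lower and 2 higher (Slc25a21 and Slc25a31), and 7, all lower, with the intensity trend or with centring over all probe sets. Of 23 named carriers, 18 kept their direction in every alternative. Slc25a5 turned to -0.010 after quantile normalization again and -0.083 with centring over all probe sets, and ran from -0.025 to 0.035 with an array left out. Slc25a4 turned to 0.032 and Slc25a10 to 0.011 with centring over the genes tested. With an array left out Slc25a1 ran from -0.013 to 0.34 and Slc25a25 from -0.41 to 0.12, both turning without Akita replicate 3. The cause of these changes was not tested. No paired analysis was possible because the groups share only replicate number 3, and nothing ties those arrays.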
